A study of Mus musculus with 8 samples.

Results

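Kinesins are motor proteins that use ATP to move along microtubules or to take microtubule ends apart. One class builds the mitotic spindle, positions chromosomes and completes cytokinesis, and its genes are mostly transcribed in dividing cells. Another class carries vesicles, organelles and ciliary cargo in dividing and resting cells alike. In the epidermis, division is largely limited to the basal layer and the hair follicle.

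Kinesin genes were taken as all entries of the deposited expression table whose symbol is Kif followed by a number, with or without a letter, which gave 35 of 32574 genes. They were sorted by known role into 11 mitotic, 13 transport and 11 other kinesins. All but Kif19a, a ciliary kinesin listed at 0 in 7 of 8 libraries and at 2.14 in the other, passed the filter on low values, so 34 were tested. The study sequenced RNA of epithelial cells, sorted by FACS from the epidermis of mouse skin, in 8 libraries to learn how epidermal clones expand and the tissue becomes fluid during repair. The 4 groups held 2 libraries each, namely K14 control and Lrig1 control, both labelled wild type, and K14 ablation and Lrig1 ablation, both labelled as basal lineage ablation. The sources used here do not give age, sex, time after ablation, the ablating agent, or what K14 and Lrig1 name (a driver, an ablated lineage or a sorted population). Below, K14 cells, Lrig1 cells and population refer only to the libraries under that label and do not state a cell identity. No label says that a group's libraries are from separate animals, so the spread behind each p-value may be technical.

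The basal keratin Krt14 was abundant in every library, at normalised read counts from 28052 in Lrig1 ablation replicate 2 to 79645 in K14 ablation replicate 1. The ablation libraries differed more from each other than the control libraries did, where reads of a pair gave a chi-square of 27.7 (K14) and 39.5 (Lrig1) for each gene, against 1.57 and 2.58 for the control pairs. Depth was 6458636 to 11654135 reads, and 3 reads, taken as the floor, equalled 2.12 to 4.23 normalised reads. That floor covers counting error only, because amplified reads need not be independent molecules. Fold changes are differences of log2(normalised read count + 1), given with their standard error (SE). A gene was called at a Benjamini-Hochberg adjusted p below 0.05 over 18140 tested genes in limma. Each gene's SE rests on a spread shared by the 4 groups, so it does not reflect the more uneven ablation pairs. It can be too small between the ablation groups and too large between the controls.

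Most of the mitotic kinesin promoters share a short motif of cell cycle genes, and any part of the motif in the kinesin values was not tested. Promoters, from RefSeq on GRCm38.p6, cover 250 bases before to 50 bases after a start site and were in the table used for 29 of the 35 kinesins, 33 promoters in all. The motif TTTGAA, a form of the cell cycle homology region, was found on either strand in 9 of 10 mitotic kinesin promoters (90%), 1 of 12 transport kinesin promoters (8.33%) and 17.9% of all 32851 promoters. Within 50 bases of the start, TTTGAA or TTTAAA, the other form, lay in 8 of 10 mitotic promoters, 1 of 12 transport promoters and 8.28% of all. CCAAT, the letters of the NF-Y box, was found on either strand in 6 of 10 mitotic promoters, 4 of 12 transport promoters and 37.4% of all. TTTAAA alone reads the same on both strands and was in 2 of 10 mitotic promoters against 13.2% of all. Kif18a was the mitotic kinesin whose promoter held none of these letters, and Kif1a the transport kinesin whose promoter held TTTGAA. A match describes the letters only and is not a bound site.

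The stretches below, each of 100 bases with 75 before the start, show the motif near the start of 4 mitotic kinesins and its absence in the 2 transport kinesins that were called after ablation. Capitals mark TTTGAA or CCAAT, or their reverse-strand forms TTCAAA and ATTGG. Kif11 is at chr19:37376307-37376406 on the plus strand, Kif18b at chr11:102925100-102925199 on the minus strand, Kif20b at chr19:34922283-34922382 on the plus strand and Kif23 at chr9:61946775-61946874 on the minus strand. Kif1b, for the first of its 2 listed starts, is at chr4:149307709-149307808 on the minus strand, and Kif1c at chr11:70700473-70700572 on the plus strand.
Kif11: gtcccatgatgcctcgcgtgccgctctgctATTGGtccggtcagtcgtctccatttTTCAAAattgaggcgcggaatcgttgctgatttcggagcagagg
Kif18b: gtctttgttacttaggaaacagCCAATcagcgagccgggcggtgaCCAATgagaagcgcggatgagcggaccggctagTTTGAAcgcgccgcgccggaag
Kif20b: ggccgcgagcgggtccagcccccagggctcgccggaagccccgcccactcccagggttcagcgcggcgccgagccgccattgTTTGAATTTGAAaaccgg
Kif23: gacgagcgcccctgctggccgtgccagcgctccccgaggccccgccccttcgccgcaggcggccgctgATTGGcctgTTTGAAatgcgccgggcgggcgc
Kif1b: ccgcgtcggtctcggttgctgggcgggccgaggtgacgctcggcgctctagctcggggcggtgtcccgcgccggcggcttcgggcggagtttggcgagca
Kif1c: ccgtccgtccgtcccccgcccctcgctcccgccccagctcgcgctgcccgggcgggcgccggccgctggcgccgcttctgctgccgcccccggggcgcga

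In the Kif20b stretch 2 copies of TTTGAA follow each other without a gap, beginning 8 and 14 bases from the start. In Kif11 the motif begins 19 bases before the start on the reverse strand, and in Kif18b and Kif23 it begins 4 and 3 bases from the start. The Kif1b and Kif1c stretches hold neither motif. Beyond the printed bases, the Kif1b promoter holds CCAAT on the reverse strand, beginning 118 and 87 bases before this start. The mitotic stretches shown all have the motif near the start, while in Kif2c, not shown, TTTGAA begins 103 bases before it.

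Transport kinesins were the more abundant class in every library by summed reads. Per kilobase of exon, the ubiquitous conventional kinesin heavy chain Kif5b led the K14 control group with a mean of 505 normalised reads, followed by Kif21a at 271, Kif1c at 258 and Kif13a at 209. Mitotic kinesins ran on that scale from 94.7 for Kif20a and 82.5 for Kif11 down to 18.2 for Kif18a. The neuronal heavy chains Kif5a and Kif5c and the synaptic vesicle motor Kif1a were near the bottom, at 1.07, 2.44 and 0.269. On the same per kilobase scale, mitotic kinesins made up 23.3 and 24.3% of all kinesin reads in K14 control against 37.3 and 29.3% after K14 ablation, and 11.3 and 10.9% in Lrig1 control against 33.2 and 21.0% after Lrig1 ablation. The Lrig1 control libraries had the lowest mitotic share, and 3 of the 4 ablation libraries, all but Lrig1 ablation replicate 2, lay above every control.

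**Figure D1:**
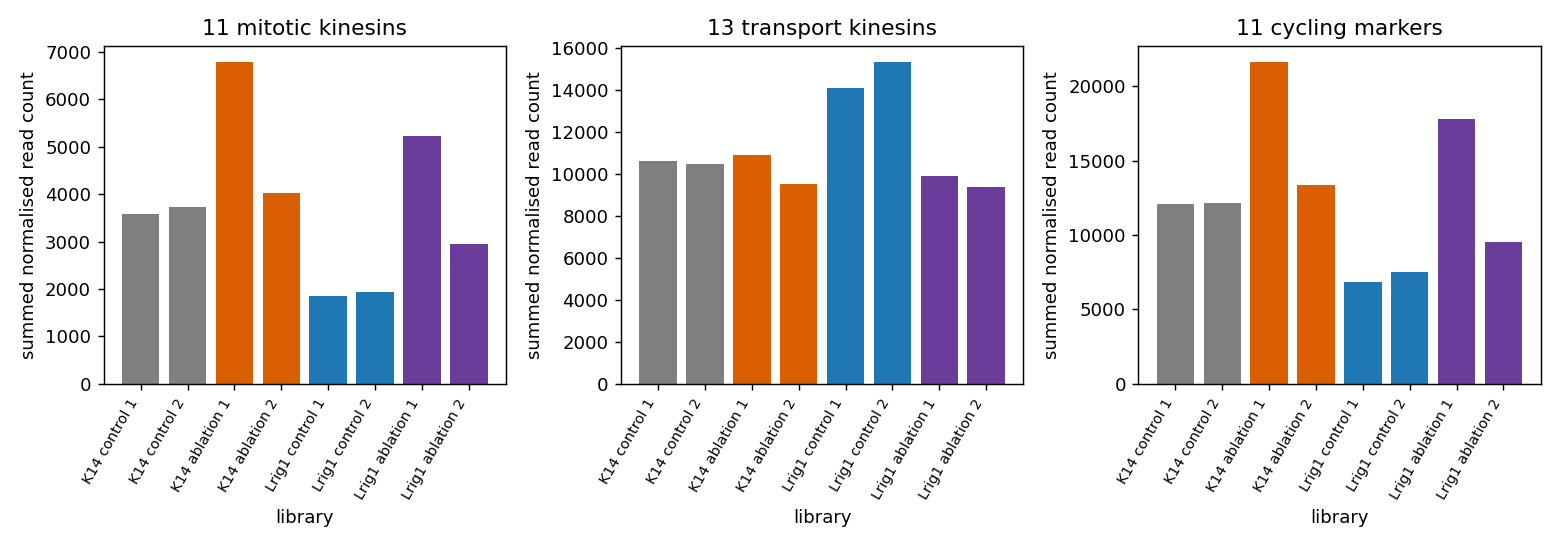
Summed normalised read count (y axis, from 0) of the 11 mitotic kinesins, the 13 transport kinesins and 11 cycling markers in each of the 8 libraries (bars, x axis). Mitotic sums ran from 1853 in Lrig1 control replicate 1 to 6785 in K14 ablation replicate 1, while transport sums were highest in the Lrig1 control libraries, at 14067 and 15327.

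In the Lrig1 libraries, ablation was accompanied by higher mitotic kinesin levels and lower levels of several transport kinesins. The summed mitotic kinesin reads were 1853 and 1935 in Lrig1 control against 5226 and 2941 in Lrig1 ablation, a ratio of group means of 2.16. The summed transport kinesin reads were 14067 and 15327 against 9886 and 9388, a ratio of 0.656. Of the 34 tested kinesins 4 were called (limma, adjusted p), where 4.06% of all tested genes were. Kif21b and Kif18b were called higher, beside 0.766% of tested genes, and Kif1c and Kif1b lower, beside 3.3%. In bulk samples a change in the number of cells of a type and a change in RNA per cell cannot be told apart.

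Kif18b, which restrains astral microtubules in mitosis (ENSMUSG00000051378, chromosome 11, 102905529 to 102925124 on the minus strand of GRCm38), was at 51.2 and 53.6 normalised reads in Lrig1 control against 196 and 119 in Lrig1 ablation. Both ablation libraries lay well above both controls, and Kif18b rose by 1.53 ± 0.27 (SE) on the log2 scale (limma adjusted p = 0.0247). In K14 cells Kif18b was at 128 and 136 in control and 233 and 170 in ablation, a log2 difference of 0.59 ± 0.27 (SE, adjusted p = 0.413 in limma). These groups did not overlap either, but the difference was not called.

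The remaining 10 mitotic kinesins were not called by limma in Lrig1 cells, yet each had both ablation libraries above both controls. DESeq2 on whole reads called 7 of these 10 higher (Kif14, Kif15, Kif20a, Kif20b, Kif22, Kif23 and Kif2c), with 11 kinesins and 5.5% of all genes called in all, and edgeR called none of the 10, with 3 kinesins and 3.24% of genes. All 11 mitotic kinesins were arranged so, against 21.4% of all tested genes, and 10 of the 11 had an unadjusted p below 0.05 in the upward direction, against 7.99% of tested genes. All 11 differences were positive (48.4% of tested genes). The median log2 difference of the class was 1.06, and that of all tested genes was -0.017.

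Spindle assembly depends on Kif11, which slides antiparallel microtubules apart, and Kif15, which helps to hold the poles apart. Kif15 was at 191 and 231 in Lrig1 control against 696 and 414 in Lrig1 ablation, a log2 difference of 1.35 ± 0.32 (SE, adjusted p = 0.0561 in limma). Kif11 was at 320 and 365 against 788 and 443, a difference of 0.79 ± 0.29 (SE, adjusted p = 0.175 in limma). In K14 cells Kif15 was at 497 and 483 in control and 860 and 478 in ablation, so its second ablation library sat below both controls. Kif11 was at 611 and 620 against 1092 and 724, and its groups did not overlap.

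Among kinesins that act on microtubule ends, Kif2c takes ends apart at kinetochores and Kif18a damps chromosome movement at the metaphase plate. Kif2c was at 53.5 and 60.6 in Lrig1 control against 215 and 95.5 in Lrig1 ablation, a log2 difference of 1.32 ± 0.39 (SE, adjusted p = 0.11 in limma). In K14 cells it was at 104 and 101 in control and 337 and 193 in ablation, a difference of 1.31 ± 0.39 (SE, adjusted p = 0.263 in limma). Kif2c thus had the largest K14 difference of the mitotic kinesins, of nearly the same size in both populations. Kif18a was at 121 and 138 against 233 and 212 in Lrig1 cells, where the ablation libraries lay close together, and at 186 and 172 against 252 and 178 in K14 cells, where the groups overlapped.

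The chromokinesins Kif4 and Kif22 bind chromosome arms and push them outward from the poles. Kif22 was at 100 and 95.9 in Lrig1 control against 287 and 147 in Lrig1 ablation, with 208 and 201 in K14 control and 377 and 293 in K14 ablation. Kif4 was at 177 and 182 against 481 and 221 in Lrig1 cells, and at 353 and 364 against 638 and 316 in K14 cells. The groups of Kif22 did not overlap in either population, while the K14 groups of Kif4 did.

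Kif14, Kif20a, Kif20b and Kif23 work at the central spindle and midbody during cytokinesis. Kif20a, which carries the chromosomal passenger complex, was at 257 and 242 against 695 and 376 in Lrig1 cells, and at 370 and 452 against 676 and 510 in K14 cells. It was the mitotic kinesin whose highest library was Lrig1 ablation replicate 1, since the other 10 peaked in K14 ablation replicate 1. Kif23, the motor of centralspindlin, was at 300 and 285 against 826 and 423 in Lrig1 cells, and at 567 and 602 against 1136 and 587 in K14 cells. Kif14, the partner of citron kinase, was at 101 and 106 against 309 and 180 in Lrig1 cells, and at 216 and 221 against 529 and 256 in K14 cells. Kif20b was at 180 and 176 against 501 and 310, and at 350 and 376 against 655 and 311. Each of these 4 genes was separated by group in Lrig1 cells, whereas in K14 cells the second ablation library fell inside or below the control range for Kif23 and Kif20b.

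**Figure D2:**
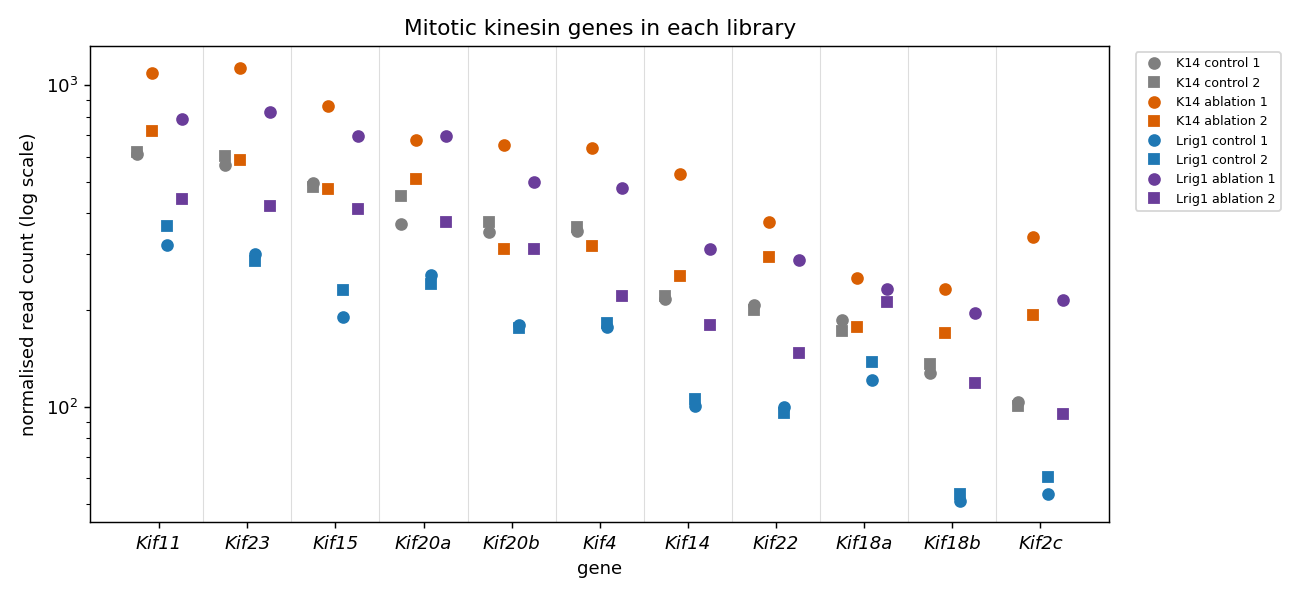
Normalised read count (y axis, log scale) of the 11 mitotic kinesins (x axis) in the 8 libraries, with circles for replicate 1 and squares for replicate 2. The Lrig1 control libraries are the lowest 2 for all 11 genes, and K14 ablation replicate 1 is the highest for 10 of 11.

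The ablation libraries of a group were unequal. K14 ablation replicate 1 exceeded replicate 2 by 1.29 to 2.11 times over the 11 mitotic kinesins, and Lrig1 ablation replicate 1 exceeded replicate 2 by 1.1 to 2.25 times. Set against the mean of its controls, Lrig1 ablation replicate 2 was higher for 11 of 11 genes, at 1.23 to 2.28 times, and K14 ablation replicate 2 for 7 of 11, at 0.856 to 1.88 times. Without K14 ablation replicate 1, the K14 log2 differences of Kif15, Kif18a, Kif20b and Kif4 were below 0.

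In K14 cells no kinesin was called by limma, where 0.187% of all tested genes were. At an unadjusted p below 0.05 there were 5 kinesins against 12.8% of all tested genes. On whole reads edgeR called 0 kinesins, beside 0.176% of genes, and DESeq2 called 0, beside 1.22%. All 11 mitotic kinesins had positive log2 differences (49.7% of tested genes did), with a median of 0.52 beside -0.0018 for all tested genes. For 6 of the 11 both ablation libraries lay above both controls, against 27.4% of tested genes. Summed mitotic kinesin reads were 3590 and 3729 in K14 control and 6785 and 4017 in K14 ablation, a ratio of 1.48, so replicate 1 carried most of that excess. Summed transport kinesin reads were 10627 and 10494 against 10914 and 9502, which overlapped.

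Cycling markers that are not kinesins were high and low in the same libraries. The 11 cycling markers (Mki67, Top2a and the like) summed to 6851 to 7525 normalised reads in Lrig1 control and 9508 to 17796 after ablation there, and to 12120 to 12172 in K14 control and 13338 to 21636 after ablation. None of the 11 was called by limma in either ablation comparison (3 in K14 cells had an unadjusted p below 0.05, against 12.8% of tested genes, and 9 in Lrig1 cells in the upward direction, against 7.99%), and their median log2 differences were 0.47 in K14 and 0.91 in Lrig1 cells. The ratio of the mitotic kinesin sum to the cycling marker sum stayed between 0.257 and 0.314 in the 8 libraries. It was lowest in the Lrig1 control libraries, at 0.271 and 0.257. The basal keratinocyte list was likewise uneven in Lrig1 ablation, with 7 genes summing to 90747 to 209178 against 107216 to 116747 in Lrig1 control. The part of cycling or basal cell share in the kinesin values was not tested.

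Genes that work with mitotic kinesins mostly had positive differences too, and 1 was called by limma. Of 22 tested partners (the spindle factor Tpx2, the midzone bundler Prc1, Aurora and Polo kinases, centralspindlin and passenger subunits), 21 had positive log2 differences in each ablation comparison, against 49.7% of all tested genes in K14 and 48.4% in Lrig1 cells, with medians of 0.63 in K14 and 0.94 in Lrig1 cells. Cit, the citron kinase to which Kif14 binds, was at 149 and 131 in Lrig1 control against 419 and 267 in Lrig1 ablation, and rose by 1.25 ± 0.28 (SE, adjusted p = 0.05 in limma, just under the threshold). No other partner was called by limma in either comparison, so 1 of 22 was called higher in Lrig1 cells beside 0.766% of all tested genes. At an unadjusted p below 0.05 there were 6 of 22 in K14 cells, against 12.8% of tested genes. Plk1, a mitotic kinase, had the largest differences of the list, 1.55 ± 0.53 in K14 and 1.73 ± 0.53 in Lrig1 cells (SE, adjusted p = 0.305 and 0.116 in limma). Of 5 motors with other names, none was called, beside 0.187% of tested genes in K14 and 4.06% in Lrig1 cells. At an unadjusted p below 0.05 there were 2, both higher, in each comparison. The shares of tested genes were 12.8% (either direction) in K14 cells and 7.99% (higher) in Lrig1 cells. Cenpe, the kinetochore kinesin, was at 240 and 341 in Lrig1 control against 822 and 556 in Lrig1 ablation, and Kifc1, the minus-end spindle motor, at 74.5 and 69.1 against 188 and 76.4. Reads of Kifc1 and its near-identical copy Kifc5b may be split between them, so their values are uncertain.

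The transport kinesins showed a different pattern in Lrig1 cells. Of 13, 2 were called lower, beside 3.3% of all tested genes, and 4 had positive log2 differences, beside 48.4%. The class median was -0.25. For 6 of 13 both ablation libraries lay below both controls, against 26.4% of all tested genes. For 1 of 13, Kif17, both lay above, against 21.4%. In K14 cells the class median was -0.03, a sign that changed with the pseudocount, the tool and the libraries used. There 6 of 13 differences were positive, near the 49.7% of all tested genes.

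Kif1c, a fast motor for vesicles and integrins (ENSMUSG00000020821, chromosome 11, 70700548 to 70731964 on the plus strand), was at 3665 and 3891 normalised reads in Lrig1 control against 2036 and 1596 in Lrig1 ablation. The groups were far apart, and Kif1c fell by 1.07 ± 0.16 (SE) on the log2 scale (limma adjusted p = 0.0129). In K14 cells it was at 1894 and 1861 in control and 2180 and 2126 in ablation, slightly higher in both ablation libraries, with a difference of 0.20 ± 0.16 (SE, adjusted p = 0.628 in limma). The difference between the ablation effects was -1.26 ± 0.22 (SE), not called by limma (adjusted p = 0.0675) or edgeR (0.0822) but called by DESeq2 (0.00206).

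Kif1b, which carries mitochondria and synaptic vesicle precursors (ENSMUSG00000063077, chromosome 4, 149176319 to 149307693 on the minus strand), was at 2234 and 2482 in Lrig1 control against 1237 and 1525 in Lrig1 ablation. It fell by 0.78 ± 0.17 (SE, adjusted p = 0.0474 in limma), and with edgeR the adjusted p was 0.0644. Kif1b also lost its call with TMM scaling, array weights, no filter on low values, a replicate block and the Lrig1 libraries alone. Kif1b kept its call with DESeq2, other pseudocounts and a stricter filter. In K14 cells it was at 1302 and 1296 in control and 1547 and 1222 in ablation, with overlapping groups. Both called transport kinesins thus stood out in the Lrig1 control libraries, and in Lrig1 ablation they lay near their K14 levels.

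Kif5b and Kif13b, a membrane trafficking motor, were also lower in both Lrig1 ablation libraries without being called. Kif5b was at 5060 and 5612 in Lrig1 control against 3734 and 3378 in Lrig1 ablation, a difference of -0.59 ± 0.17 (SE, adjusted p = 0.098 in limma). Kif13b was at 607 and 630 against 357 and 470, a difference of -0.59 ± 0.16 (SE, adjusted p = 0.0893 in limma). The endosome motor Kif16b was at 804 and 882 against 666 and 685, again without overlap. By contrast, Kif13a, which carries endosomes and melanosomes, was at 1109 and 1190 in Lrig1 control against 1335 and 1145 in Lrig1 ablation, with overlapping groups. Of the ciliary motor subunits, Kif3a was at 161 and 169 against 132 and 188, with overlapping groups, and Kif3b at 293 and 328 against 273 and 250.

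**Figure D3:**
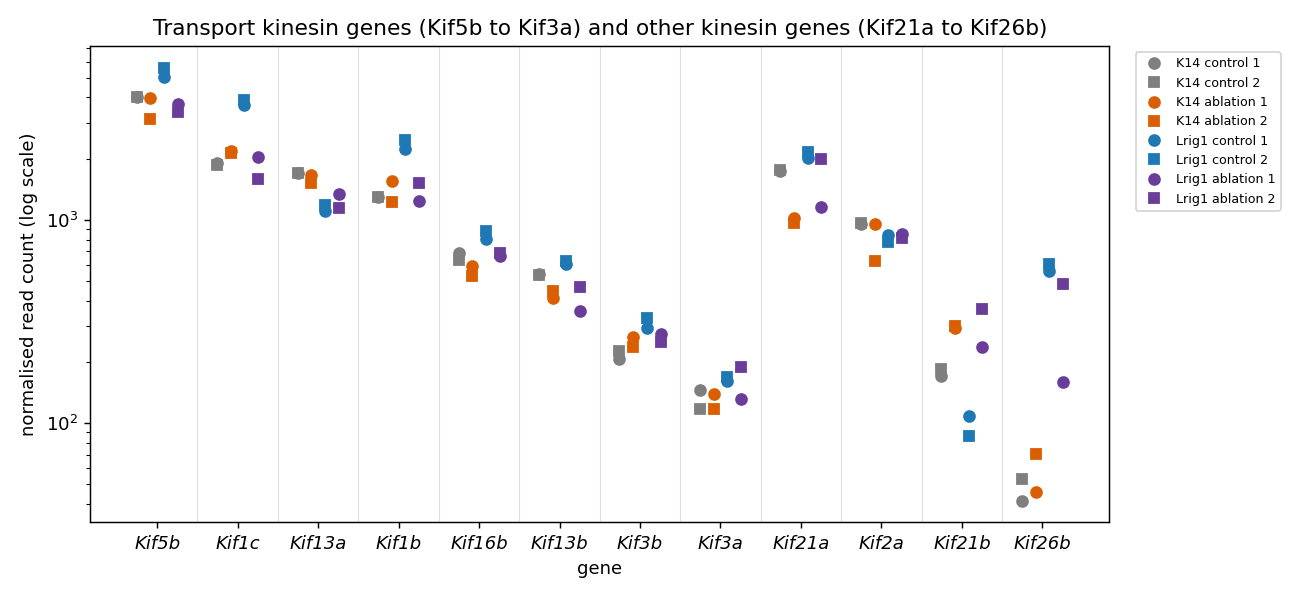
Normalised read count (y axis, log scale) of 8 transport kinesins, Kif5b to Kif3a, and 4 other kinesins, Kif21a to Kif26b (x axis), in the 8 libraries, with circles for replicate 1 and squares for replicate 2. Kif1c and Kif1b are highest in both Lrig1 control libraries, and Kif26b is at 41.6 to 70.8 in the K14 libraries and 159 to 610 in the Lrig1 libraries.

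The largest K14 differences among transport kinesins were in genes with few reads. Kif1a was at 3.05 and 1.97 in K14 control, at or under the floor of 3 reads, and at 13.4 and 15.0 in K14 ablation, a log2 difference of 2.13 ± 0.50 (SE, adjusted p = 0.177 in limma). In Lrig1 cells Kif1a was at 9.31 and 5.64 in control and 6.21 and 5.57 in ablation, so the groups overlapped. Kif5c was at 14.2 and 20.7 in K14 control and 6.37 and 9.65 in K14 ablation (-1.04 ± 0.60, SE, adjusted p = 0.511 in limma). Kif3c was at 70.1 and 60.1 against 85.6 and 92.2, and Kif5a, the third of these neuronal motors, was at 9.31 and 2.82 in Lrig1 control against 8.88 and 14.3 in Lrig1 ablation. The 7 Schwann and neuronal markers summed to 30.5 to 33.5 in K14 control (Nefl at 0) against 54.7 to 64.4 after ablation, and to 59.4 to 63.4 in Lrig1 control (Snap25 at 0) against 44.6 to 69.2 after ablation. Of these 7, 2 could be tested and none was called after ablation, beside 0.187% of tested genes in K14 and 4.06% in Lrig1 cells. At an unadjusted p below 0.05 there was 1, higher, in each population. The shares of tested genes were 12.8% (either direction) in K14 cells and 7.99% (higher) in Lrig1 cells. The part of these markers in the Kif1a values was not tested.

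In the transport machinery around the kinesins a few genes were lower after Lrig1 ablation. Of 17 tested partners of transport kinesins, limma called 2 lower in Lrig1 ablation, beside 3.3% of all tested genes, and 0 in K14 ablation, beside 0.187%. In K14 ablation 2 of 17 had an unadjusted p below 0.05, a share near the 12.8% of all tested genes. Map7d1, which recruits kinesin to microtubules, was at 824 and 792 in Lrig1 control against 375 and 379 in Lrig1 ablation, and fell by 1.1 ± 0.13 (SE, adjusted p = 0.00569 in limma). It was at 578 and 585 in K14 control and 724 and 758 in K14 ablation, and the difference between the ablation effects was called (-1.45 ± 0.18, SE, adjusted p = 0.0401 in limma). Klc3, a kinesin light chain, was at 1317 and 1214 in Lrig1 control against 540 and 757 in Lrig1 ablation, and fell by 0.98 ± 0.18 (SE, adjusted p = 0.0249 in limma). The heavy chains it can join, Kif5a, Kif5b and Kif5c, were not called.

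Among 22 tested genes of dynein and dynactin, the motor that runs opposite to most kinesins, 19 had negative differences in Lrig1 cells (median -0.35), against 51.6% of all tested genes, and 11 of 22 in K14 cells (median 0.0023). In Lrig1 ablation limma called 3 of 22, all lower, beside 3.3% of all tested genes. The cargo adaptor Bicd2 was at 3037 and 3352 in Lrig1 control against 1463 and 1314 in Lrig1 ablation (-1.20 ± 0.14, SE, adjusted p = 0.00531 in limma). The light chains Dynll1 and Dynlt3 fell by 0.95 ± 0.13 and 0.78 ± 0.17 (SE, adjusted p = 0.0106 and 0.0474 in limma). No dynein or dynactin gene was called by limma in K14 ablation, and 6 of 22 had an unadjusted p below 0.05, against 12.8% of tested genes.

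Summed markers of some other cells were also lower in the Lrig1 ablation libraries. The 7 differentiating keratinocyte markers summed to 109998 to 124242 in Lrig1 control against 34029 to 35282 in Lrig1 ablation. There 5 of 7 were called lower by limma, beside 3.3% of all tested genes. In K14 control and ablation they summed to 67817 to 72601 and 56946 to 82228. None of 7 was called in K14 ablation, beside 0.187% of tested genes. At an unadjusted p below 0.05 there were 5 (4 lower and 1 higher), against 12.8% of tested genes. The 5 upper hair follicle markers summed to 48953 to 51262 in Lrig1 control, 15615 to 29956 in Lrig1 ablation, 7276 to 7401 in K14 control and 8215 to 14201 in K14 ablation. Its members did not move alike. After Lrig1 ablation limma called Krt17 lower (beside 3.3% of tested genes), from 12654 and 12357 to 7190 and 7359. It called Lgr6 higher (beside 0.766%), from 346 and 364 to 926 and 904. After K14 ablation limma called Krt17 higher, from 1901 and 2082 to 5722 and 7274, where 0.187% of tested genes were called. Plet1 was at 2812 and 2752 in K14 control and 1259 and 1175 in K14 ablation without a call. Endothelial markers, 5 genes, summed to 759 to 813 in Lrig1 control and 49.7 to 123 (Sele at 0) in Lrig1 ablation. In K14 control and K14 ablation they summed to 65 to 80.2 (Kdr at 0) and 51.5 to 96.9. After Lrig1 ablation 4 of 5 were called lower, beside 3.3% of tested genes. Myeloid and Langerhans markers, in the same order of groups, summed to 2710 to 2963, 986 to 1311, 777 to 900 and 797 to 1890. Epcam alone made up most of the Lrig1 sums, at 1908 and 1930 in control and 753 and 1134 in ablation. Cd74 was at 944 in K14 ablation replicate 2, and Itgam entered each sum as 2 rows. These sums thus rest largely on single genes and need not follow the named cells. After Lrig1 ablation 1 of 8 tested was called lower, beside 3.3% of tested genes. Fibroblast markers, 6 genes, summed to 85.3 to 300 in any library, with Lum at 0 in K14 control, T cell markers to 94.7 to 716, melanocyte markers to 197 to 349 and Merkel markers to at most 25.6. The T cell sum was nearly all Thy1, at 86.0 to 698, while Cd3e was at 1.41 to 28.9. The part of any of these cells in the kinesin values was not tested.

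Of all 34 tested kinesins the largest positive Lrig1 difference was in the other class. Kif21b, which slows microtubule growth (ENSMUSG00000041642, chromosome 1, 136131389 to 136177998 on the plus strand), was at 108 and 86.0 in Lrig1 control against 238 and 364 in Lrig1 ablation. Unlike the mitotic kinesins, it was higher in the second ablation library than in the first. It rose by 1.60 ± 0.23 (SE, adjusted p = 0.0127 in limma). In K14 cells it was at 171 and 185 in control and 294 and 301 in ablation, a difference of 0.74 ± 0.23 (SE, adjusted p = 0.272 in limma). For the mean of the K14 and Lrig1 effects, 2 kinesins were called beside 2.83% of all tested genes, Kif21b at 1.17 ± 0.16 and Kif18b at 1.06 ± 0.19 (SE, adjusted p = 0.0126 and 0.0313 in limma), while DESeq2 called 12 beside 5.07%.

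Kif21a, the close relative of Kif21b, went the other way. It was at 1740 and 1765 in K14 control and 1025 and 968 in K14 ablation, a difference of -0.81 ± 0.23 (SE, adjusted p = 0.236 in limma) with groups far apart. In Lrig1 cells it was at 2017 and 2147 in control and 1151 and 1982 in ablation, so replicate 1 alone was much lower. Kif2a, the depolymerase most like Kif2c, was at 959 and 970 against 959 and 631 in K14 cells, and at 847 and 774 against 848 and 812 in Lrig1 cells. Its groups overlapped in both populations, while those of Kif2c did not.

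Kif27 and Kif6, motors linked to cilia, were low, with Kif27 at 3.49 and 4.23 in Lrig1 control against 10.7 and 8.76 in Lrig1 ablation, and Kif6 at 8.12 and 14.8 in K14 control and 6.37 and 8.58 in K14 ablation. Neither was called. Kif24, which acts at centrioles, was at 88.5 and 123 in Lrig1 control against 145 and 177 in Lrig1 ablation, and Kif7, a Hedgehog pathway kinesin, was between 37.6 and 66.1 in all libraries. Kif24 had no overlap between control and ablation in either population.

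**Figure D4:**
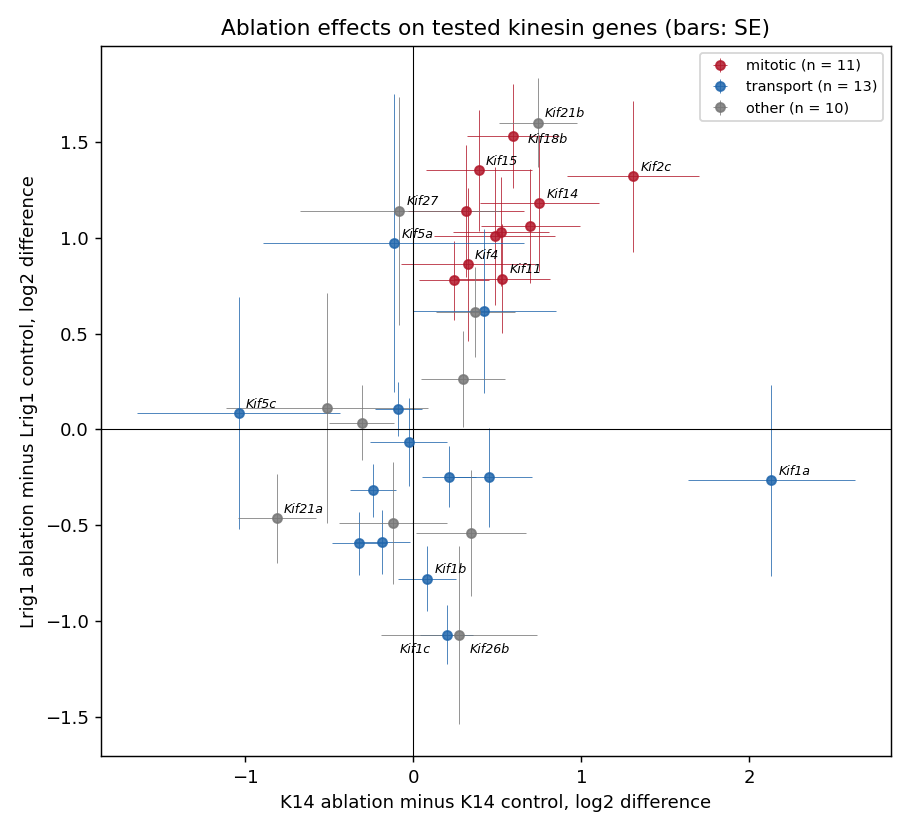
Log2 difference of ablation minus control in K14 cells (x axis) and Lrig1 cells (y axis) for the 34 tested kinesins, with SE bars and colours for mitotic (11), transport (13) and other (10). All mitotic kinesins lie in the upper right, with Kif18b at 0.59 and 1.53, while Kif1c and Kif1b lie near 0 on the x axis and at -1.07 and -0.78 on the y axis.

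Control cells of the populations differed as well. The Lrig1 control libraries also enter the Lrig1 ablation comparison, and the K14 control libraries the K14 one, so these values stand beside the ablation values and add no independent support. Of 34 kinesins 5 were called between Lrig1 control and K14 control, where 8.79% of all tested genes were. All 11 mitotic kinesins were lower in both Lrig1 control libraries than in both K14 control libraries, against 34.4% of tested genes, with a median log2 difference of -1.0 and a ratio of sums of 1.93 in favour of K14. Kif18b was the mitotic kinesin that limma called (-1.32 ± 0.27, SE, adjusted p = 0.0251), and DESeq2 also called Kif15, Kif20b, Kif22 and Kif23 lower. In all, DESeq2 called 8 kinesins there and 8.93% of all genes. The transport median was 0.35, with 9 of 13 genes higher in both Lrig1 control libraries (34.5% of tested genes were) and 3 of 13, Kif13a, Kif17 and Kif5c, lower in both.

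Kif26b, which lacks motor activity and takes part in signalling and cell adhesion in development (ENSMUSG00000026494, chromosome 1, 178529125 to 178939200 on the plus strand), differed most. It was at 560 and 610 in Lrig1 control, 159 and 485 after Lrig1 ablation, 41.6 and 53.2 in K14 control and 46.0 and 70.8 after K14 ablation. All Lrig1 libraries lay above all K14 libraries, and Lrig1 control exceeded K14 control by 3.61 ± 0.47 on the log2 scale (SE, adjusted p = 0.00547 in limma). After Lrig1 ablation it differed by -1.07 ± 0.47 (SE, adjusted p = 0.249 in limma), with replicate 1 far below the others. Its antisense neighbour Gm16564 was at 76.8 and 93.0 in Lrig1 control and 9.14 and 6.89 in K14 control, and without a stated strand setting their reads cannot be told apart where exons overlap. The endothelial sum given above was highest in Lrig1 control as well, at 759 to 813, and was 49.7 to 123 after Lrig1 ablation. The upper follicle sum was also highest in Lrig1 control, at 48953 to 51262, and was 15615 to 29956 after Lrig1 ablation. The part of either cell type in the Kif26b values was not tested.

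The other called genes were Kif1c (1.01 ± 0.16, SE, adjusted p = 0.00927 in limma), Kif1b (0.86 ± 0.17, adjusted p = 0.0215) and Kif13a (-0.56 ± 0.14, adjusted p = 0.0463). The Kif13a call was lost with DESeq2, no filter on low values and a replicate block. Kif13a (ENSMUSG00000021375, chromosome 13, 46749087 to 46929867 on the minus strand) was at 1692 and 1695 in K14 control and 1109 and 1190 in Lrig1 control, the reverse of the order of most transport kinesins. Between the ablation groups no kinesin was called by limma beside 0.667% of tested genes, and 5 had an unadjusted p below 0.05 (16.4% of tested genes did). There edgeR called 0 (0.744% of genes) and DESeq2 called 1, Kif26b (3.67% of genes). The mitotic median there was -0.46. For the difference of the ablation effects, limma called 0 kinesins (0.198% of tested genes), edgeR 0 (0.176%) and DESeq2 1, Kif1c (1.67%). In limma 5 kinesins had an unadjusted p below 0.05 there (15.0% of tested genes).

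The calls rested on few libraries, over all genes as for the kinesins. In the Lrig1 ablation comparison the 4 kinesin calls (4.06% of all genes) became 0 without either Lrig1 control library, where 0.0279 and 0.0335% of genes were called, and 1 (Kif21b) without either K14 control library (1.01 and 1.0%). They became 8 without either K14 ablation library (5.9 and 5.8%), 6 without Lrig1 ablation replicate 1 (13.9%), 15 without replicate 2 (11.8%), and 0 with the Lrig1 libraries fitted alone (0.937%). The 5 calls between the controls became 0 without any 1 of the 4 control libraries, where 0.00559 to 0.533% of genes were called, and 8 to 14 without 1 of the ablation libraries (up to 19.9%). With the K14 ablation comparison, 3 kinesins (Kif21a lower, Kif21b and Kif2c higher) were called without either Lrig1 ablation library, beside 3.81 and 4.17% of genes. The K14 median of the mitotic kinesins was 0.23 without K14 ablation replicate 1 and 0.83 without replicate 2, and the Lrig1 median was 0.71 without Lrig1 ablation replicate 1 and 1.5 without replicate 2. The 2 calls for the mean effect became 0 without any 1 of the 4 control libraries (0.246 to 0.3% of genes), 1 without K14 ablation replicate 1 (2.4%), 7 without replicate 2 (4.4%), and 8 and 14 without Lrig1 ablation replicates 1 and 2 (8.9 and 14.6%). Without Lrig1 ablation replicate 1, 9 kinesins were called between the ablation groups (22.5% of genes) and 4 for the difference of effects (11.2%), for which 2 were called without replicate 2 (3.11%). The 6 called partner and dynein genes also lost their calls without either Lrig1 control library. Over all alternatives, Dynlt3 lost its call in 10 and kept it in 8, and Cit lost it in 9 and kept it in 9. Bicd2, Map7d1, Klc3 and Dynll1 lost theirs in 2 to 5. The Map7d1 call for the difference of effects was lost in 6 and kept in 11.

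Exons of 13 kinesins overlap another annotated gene, so part of their reads may be shared. Among these, Kif20a overlaps Cdc23, a cell cycle gene at 399 to 677 normalised reads, on the opposite strand, and Kif17 overlaps Sh2d5 on the same strand, at 4.23 to 45.3. Kif18b, Kif21b and Kif1b, which were called, had no such overlap, and Kif1c contains the microRNA gene Mir6925, at 107 to 295.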

How the data were processed

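RNA from FACS-sorted cells was purified with the RNeasy Micro kit and made into libraries with the Ovation Solo RNA-seq system, per the labels' protocols. The submitters' processing notes name HTSeq 0.11.1, STAR, Picard and Trimmomatic, and the build GRCm38 (mm10). The sources used here do not give their roles, the strand setting, the annotation or the normalising program. The authors deposited 1 table of 32574 genes, whose unit is a normalised signal for each of the 8 libraries. In every library 100% of values were whole multiples of 1 step (tolerance 0.01 read), so reads were recovered and used for edgeR 4.0.16 and DESeq2 1.42.0 as alternatives. Columns of the ablation libraries use another word than the labels and were matched because no other group was left in each population.

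limma 3.58.1 in R 4.3.3 was fitted to log2(value + 1) with a variance trend and 4 group means (4 residual and 4.13 prior degrees of freedom), over 18140 genes that reached 1e-06 of the total in 2 or more libraries. Values + 1 understate changes of low genes. Fits were tested on simulated data. Alternatives were other pseudocounts and filters, TMM scaling, array weights, fits on 1 population, a replicate block, other class membership and leaving out each library. Same-numbered libraries of different groups did not deviate together (r of -0.0491 to 0.0838), so numbers were not taken as pairs. Members and lists were chosen with earlier results of these data known. Named genes are the tested mitotic kinesins, any kinesin called, and the 3 transport and 3 other kinesins with the largest difference in each ablation comparison. Kif2a, Kif3a, Kif3b, Kif5b, Kif7, Kif13b, Kif16b and Kif24 were named after their values were seen. Coordinates and exon lengths come from GENCODE M21, promoters from RefSeq.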

Additional observations from a re-analysis of the deposited data

How the results depend on the processing

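With 2 libraries a group, depth did not limit the abundant kinesins, but genes near 3 reads (Kif1a, Kif5a, Kif27, Kif6) are imprecise. The share of all genes called stands in brackets beside each kinesin count. Kinesin calls in K14 ablation were 2 with array weights (2.63% of genes) and 0 to 3 with 1 library left out (0.0 to 4.17%). In Lrig1 ablation they were 11 with DESeq2 (5.5%), 0 with its own 4 libraries alone (0.937%) and 0 to 15 with 1 library left out (0.0279 to 13.9%). For the mean effect they were 12 with DESeq2 (5.07%), 11 with array weights (4.48%) and 0 to 14 with 1 left out (0.246 to 14.6%), and for the difference of effects 1 (1.67%), 1 (0.805%) and 0 to 4 (0.0 to 11.2%). Between controls they were 8 with DESeq2 (8.93%), 25 with array weights (37.2%) and 0 to 14 with 1 left out (0.00559 to 19.9%), and between ablation groups 1 with DESeq2 (3.67%) and 0 to 9 with 1 left out (0.0 to 22.5%). With the replicate block, 1 kinesin, Kif26b, was called between ablation groups (0.656%) and 3 in Lrig1 ablation (2.78%), where Kif1b had an adjusted p of 0.0759 (limma). The K14 transport median changed sign with a pseudocount of 5 (0.0035), edgeR (0.0996) and DESeq2 (0.0921), and ran from -0.0877 to 0.0876 with 1 library left out. The Lrig1 transport median was -0.318 with the filter at 5e-06 and -0.328 to -0.187 with 1 left out. Both mitotic medians kept their sign in every alternative. Leaving out 1 library gave K14 differences of -0.0352 to 0.811 for Kif15, -0.00795 to 0.491 for Kif18a, -0.223 to 0.85 for Kif20b and -0.182 to 0.829 for Kif4. The causes were not tested.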
